A study of Mus musculus with 4 samples.

Results

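A set of 9 genes of epithelial water, sodium, phosphate, chloride and potassium transport were followed in mouse mammary gland: the aquaporins Aqp1, Aqp3 and Aqp5, the epithelial sodium channel subunits Scnn1a, Scnn1b and Scnn1g, the phosphate transporter Slc34a2, the cotransporter Slc12a2 and the potassium channel Kcnn4. They were found by gene symbol among the platform's probe sets, and these 9 genes of 12394 named genes were read by 14 of 22690 probe sets. The genes were chosen with their intensities on these arrays known, so every difference below is a description of 4 arrays. Total RNA came from mammary glands of nulliparous females of FVB background, whose ages were matched but not stated in the labels. The 4 groups were wild-type littermates on standard chow, MMTV-PPARd transgenic mice on standard chow, wild-type mice on chow with GW501516, and MMTV-PPARd mice on chow with GW501516. The transgene places PPARd, a nuclear receptor for fatty acids, under the mouse mammary tumour virus promoter, which is active in mammary epithelium and also in some other tissues, and GW501516 is a synthetic agonist of that receptor. Feeding lasted 1 week. The labels give the GW501516 content as 0.005% in one place and as 0.001% in another. Each group was a pool of RNA from 5 mice on 1 array, so there was no replicate spread, no test was made, and precision is limited by the number of arrays.

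Aquaporins are membrane channels for water, and Aqp3 also passes glycerol. The epithelial sodium channel, built from the products of Scnn1a, Scnn1b and Scnn1g, lets sodium enter cells from the lumen, and its activity is known to be raised by aldosterone and glucocorticoids and by membrane-bound serine proteases. Slc34a2 encodes the sodium-phosphate cotransporter NaPi-IIb, which carries phosphate across the apical membrane of lactating mammary gland, lung and intestine. Slc12a2 encodes NKCC1, a sodium, potassium and chloride cotransporter of the basolateral membrane that is known to be abundant in the ducts of the virgin gland, and Kcnn4 encodes the calcium-activated potassium channel KCa3.1, found in secretory epithelia, red cells and lymphocytes.

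The promoter windows of the 5 genes that were at least 2-fold higher in the transgenic GW501516 pool than in its wild-type counterpart are shown, since these genes were high together on the same array. RefSeq promoter sequences (GRCm38.p6) were used for 7 of the 9 genes, and no window was searched for Scnn1a and Slc12a2. The 250 bases before the annotated start site are printed 5′ to 3′ on the gene's strand. Capitals mark a match to any of 5 motifs searched on both strands: the PPAR response element, a direct repeat of AGGTCA with 1 base between the copies; AGGTCA, its single core; TTCNNNGAA, the STAT site; TATAAA, the TATA box; and AGAACA, the single core of the steroid receptor site. The core AGGTCA lies within the PPAR response element, so the first and second searches overlap.
Aqp3, chr4:41098184-41098433, minus strand: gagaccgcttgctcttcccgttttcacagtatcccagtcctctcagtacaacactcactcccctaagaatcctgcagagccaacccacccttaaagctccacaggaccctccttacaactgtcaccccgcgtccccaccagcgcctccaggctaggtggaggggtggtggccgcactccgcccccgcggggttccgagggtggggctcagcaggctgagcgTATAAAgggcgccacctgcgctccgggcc
Slc34a2, chr5:53049103-53049352, plus strand: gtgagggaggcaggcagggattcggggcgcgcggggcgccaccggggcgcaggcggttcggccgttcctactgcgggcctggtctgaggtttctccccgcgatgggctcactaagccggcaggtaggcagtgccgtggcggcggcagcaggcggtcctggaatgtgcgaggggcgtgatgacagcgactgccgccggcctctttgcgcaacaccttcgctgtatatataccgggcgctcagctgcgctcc
Scnn1g, chr7:121734229-121734478, plus strand: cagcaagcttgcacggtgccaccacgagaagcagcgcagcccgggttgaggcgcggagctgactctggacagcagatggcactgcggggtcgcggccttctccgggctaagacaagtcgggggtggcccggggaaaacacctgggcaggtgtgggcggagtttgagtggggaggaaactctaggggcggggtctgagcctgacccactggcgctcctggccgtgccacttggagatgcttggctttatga
Scnn1b, chr7:121864788-121865037, plus strand: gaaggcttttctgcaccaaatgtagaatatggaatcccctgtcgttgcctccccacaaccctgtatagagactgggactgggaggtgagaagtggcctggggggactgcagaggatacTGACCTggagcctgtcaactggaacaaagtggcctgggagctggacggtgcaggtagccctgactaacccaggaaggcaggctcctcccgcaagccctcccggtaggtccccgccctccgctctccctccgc
Kcnn4, chr7:24370013-24370262, plus strand: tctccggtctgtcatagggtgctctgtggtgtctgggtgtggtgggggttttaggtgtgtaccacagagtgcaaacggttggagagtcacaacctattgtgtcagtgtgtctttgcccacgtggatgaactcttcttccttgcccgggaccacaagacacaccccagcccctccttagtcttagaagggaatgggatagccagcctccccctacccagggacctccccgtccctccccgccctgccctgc
The Aqp3 window held TATAAA starting at position -29 from the start site, a motif present in 12.4% of all 32851 windows of this length. The Scnn1b window held the single core AGGTCA on the opposite strand, starting at -132, which 14.0% of windows hold. Slc34a2, Scnn1g and Kcnn4 held no match to the letters searched, nor did Aqp1 and Aqp5. The search took TATAAA only and no other form of the TATA box. The Slc34a2 window holds the run tatatata close to its start site, which this search does not count. The full PPAR response element was in 0.0335% of windows and in none of the 7, the STAT site in 7.02% and the steroid core in 16.1%. These matches describe letters in a short window only. Scnn1g and Scnn1b are direct neighbours in the RefSeq table, with 0 protein-coding genes between them.

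Ppard read 2.1 and 1.5 in wild type on chow and on GW501516, both under the floor of 20.5 that was set for low values, and the transgenic pools read 1943 on chow and 4223.5 on GW501516. The array of transgenic mice on chow stood apart from the other 3. Its 3 probe sets for the spiked control transcript BioB read 19.3 to 34.2, against 280.5 to 519 elsewhere, and its 3 Gapdh probe sets read 2986 to 4001, against 6753 to 12274. Each value below that uses this array is therefore set beside the comparison of genotypes on GW501516 or of diets in wild type, which do not use it. All 11 luminal epithelial markers looked for were above the floor on every array, as were the 6 white adipocyte markers with a probe set.

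Aqp3 was low in both wild-type pools and high in both transgenic pools. Its brightest probe set read 51.0 in wild type on chow, 26.4 in wild type on GW501516, 780 in the transgenic chow pool and 1808.5 in the transgenic GW501516 pool. The difference between genotypes was 15.3-fold on chow and 68.5-fold on GW501516. The other 2 Aqp3 probe sets, designed on the same transcript record, were under the floor in both wild-type pools and read 288.6 and 128.4 in the transgenic chow pool and 767.9 and 694.7 on GW501516. They give at least 14.1-fold and at least 6.26-fold on chow, and at least 37.5-fold and at least 33.9-fold on GW501516. Within transgenic mice Aqp3 was 2.32-fold higher on GW501516 by the brightest probe set, 2.66-fold and 5.41-fold by the others. In wild type it was 1.93-fold lower on GW501516 by the brightest probe set, at intensities near the floor, and the other probe sets give no fold there.

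Aqp5, a water channel of the apical membrane in glands, had another pattern, with 1 low array and 3 within 1.15-fold of each other. It read 755.9 in wild type on chow, 869.8 in wild type on GW501516, 865.1 in the transgenic GW501516 pool and 219.1 in the transgenic chow pool. On chow it was 3.45-fold lower in transgenic mice, while on GW501516 the genotypes differed by 1.01-fold. Salivary gland is a major site of Aqp5, and 7 of 8 salivary markers had a probe set, with summed intensities of 3297 in wild type on chow, 2834 in the transgenic chow pool, 9115 in wild type on GW501516 and 2906 in the transgenic GW501516 pool. Of these 7 markers 4, 5, 1 and 5 were under the floor on the arrays in this order. Bpifa2, Smr3a and Cst10 read 3719, 441.7 and 557 in wild type on GW501516 and were under the floor elsewhere, Prol1 read 147.2 in wild type on chow and was under the floor elsewhere, and Amy1, which other tissues also express, read 2785 to 4338. Their part in the Aqp5 values was not tested.

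Aqp1, the water channel of capillary endothelium and red cells, was the least variable of the 3 aquaporins. It read 2361 and 2661 in wild type on chow and on GW501516, and 1516 and 2132 in transgenic mice. The genotypes differed by 1.56-fold on chow and 1.25-fold on GW501516, with transgenic mice lower both times. The endothelial list had 10 of 10 genes above the floor on every array, with summed intensities from 5463 to 5948. Over the 9 of these that passed the filter described below, the median log2 difference between genotypes was -0.067 on chow and 0.031 on GW501516.

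**Figure D1:**
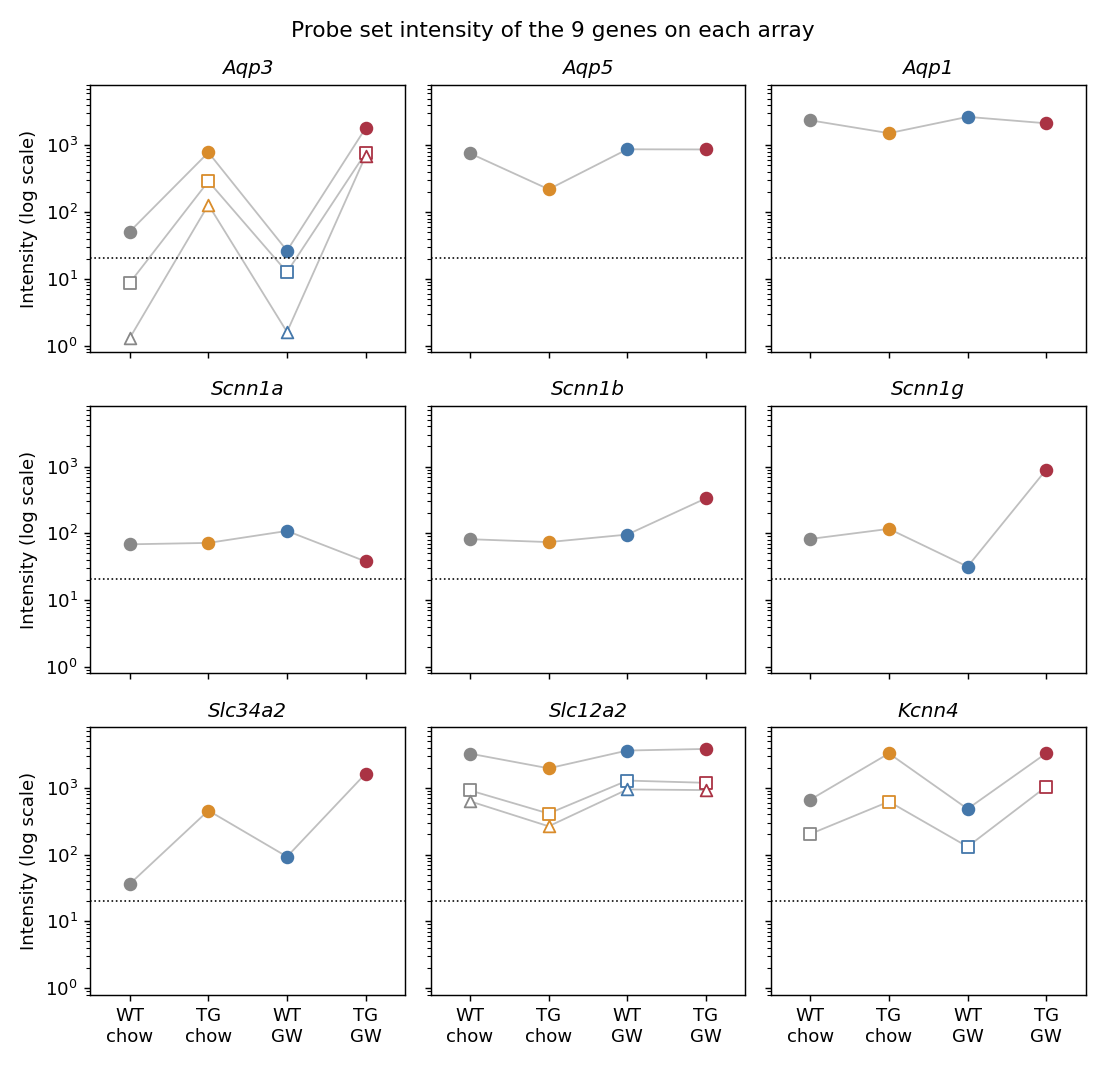
Intensity (log scale) of every probe set of the 9 genes on the arrays of wild-type (WT) and MMTV-PPARd (TG) mice on chow or GW501516 (GW); filled circles are the brightest probe set of a gene, open squares and triangles its other probe sets, and the dotted line is the floor of 20.5. Aqp3, Slc34a2 and Kcnn4 are high on both TG arrays, Scnn1b and Scnn1g only on TG with GW501516, and Aqp5 and Slc12a2 are lowest on TG with chow.

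The subunits of the epithelial sodium channel did not share a pattern. Scnn1g, the γ subunit, read 82.3 in wild type on chow, 116.5 in the transgenic chow pool, 31.7 in wild type on GW501516 and 896.5 in the transgenic GW501516 pool. The transgenic pool was 28.3-fold above wild type on GW501516 and 1.42-fold above it on chow. Scnn1b, the β subunit, read 81.6, 73.8 and 95.7 on the first 3 of these arrays and 333.9 in the transgenic GW501516 pool, which is 3.49-fold above wild type on the same diet. On chow the genotypes differed by 1.11-fold, with the transgenic pool lower.

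Scnn1a, the α subunit, went the opposite way at low intensity. It read 68.4 in wild type on chow, 71.8 in the transgenic chow pool, 108.5 in wild type on GW501516 and 37.9 in the transgenic GW501516 pool. The transgenic pool was 2.86-fold below wild type on GW501516 and 1.05-fold above it on chow. With the floor at the 40th percentile the log2 difference on GW501516 went from -1.52 to -0.61, no longer past 2-fold. No array reached 139, the median of all values that a gene had to reach on at least 1 array to be counted, so Scnn1a enters no count below. Scnn1b and Scnn1g reached it on transgenic mice with GW501516 alone and Aqp3 and Slc34a2 on the transgenic arrays alone, so for these genes the filter itself asks for a high array. Each subunit was read by 1 probe set, so no second probe set bears on these values.

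Slc34a2 was higher with the transgene and with the agonist. It read 36.3 in wild type on chow, 92.9 in wild type on GW501516, 456 in the transgenic chow pool and 1631.7 in the transgenic GW501516 pool. The genotypes differed by 12.6-fold on chow and 17.6-fold on GW501516. GW501516 went with a 2.56-fold higher value in wild type and a 3.58-fold higher value in transgenic mice, and Slc34a2 was the only one of the 9 genes at least 2-fold higher in all 4 of these comparisons. The wild-type difference rests on low intensities, and its log2 value of 1.36 was 0.39 with the floor at the 40th percentile of all values.

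Slc12a2 resembled Aqp5 in being lowest in the transgenic chow pool. Its brightest probe set read 3243.6 in wild type on chow, 1956 in the transgenic chow pool, 3612 in wild type on GW501516 and 3816 in the transgenic GW501516 pool. On chow it was 1.66-fold lower in transgenic mice by this probe set and 2.22-fold and 2.37-fold lower by the other 2. On GW501516 the genotypes differed by 1.06-fold, 1.08-fold and 1.02-fold by the 3 probe sets, the first with transgenic mice higher and the others lower. For Aqp5 and Slc12a2 the genotypes thus differed by 1.01-fold to 1.08-fold where the transgenic chow array was not used, and the part of that array's low control signals in the chow values was not tested.

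Kcnn4 was higher in both transgenic pools than in both wild-type pools. Its brighter probe set read 665 and 482.8 in wild type on chow and on GW501516, and 3273 and 3288 in transgenic mice. The transgenic pools were 4.92-fold higher on chow and 6.81-fold higher on GW501516, and the second probe set gives 3.05-fold and 7.92-fold. Between diets in transgenic mice the brighter probe set differed by 1.00-fold, while the second read 621 on chow and 1038 on GW501516, 1.67-fold higher. The T cell list, looked at because lymphocytes are known to hold Kcnn4, was highest in wild type on chow, with summed intensities of 4238 there, 1308 in the transgenic chow pool, 151.4 in wild type on GW501516 and 140.6 in the transgenic GW501516 pool. In the erythroid list 3 of 6 genes had a probe set and their summed intensity lay between 141.1 and 189.7. Most of this sum was Alas2, at 126.9 to 164.4, the only erythroid gene that passed the filter. Hba-a1 was under the floor on every array and Slc4a1 on 2, so the sum describes little more than 1 gene.

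**Figure D2:**
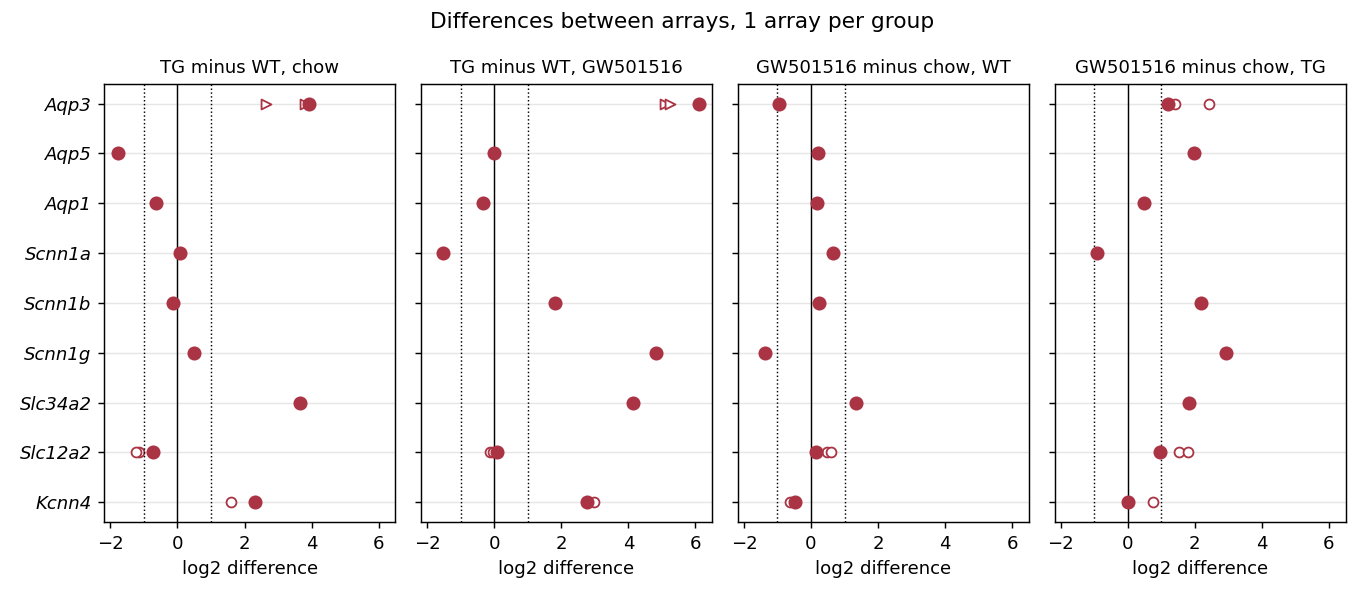
Log2 differences between arrays for the 9 genes, as transgenic (TG) minus wild type (WT) on each diet and GW501516 minus chow in each genotype; filled points are the brightest probe set, open points the others, arrowheads lower bounds where 1 array was under the floor, and dotted lines mark 2-fold. Aqp3, Slc34a2 and Kcnn4 lie beyond 2-fold in both TG minus WT panels, and Scnn1g lies beyond 2-fold in opposite directions in the GW501516 panels.

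In counts over the 8 genes that passed the filter, the transgene comparison on chow had 3 genes at or above a 2-fold higher level (Aqp3, Slc34a2 and Kcnn4), against 5.46% of all 7836 genes that passed, and 1 at least 2-fold lower (Aqp5), against 3.71%. On GW501516 there were 5 higher (Aqp3, Scnn1b, Scnn1g, Slc34a2 and Kcnn4), against 2.82%, and 0 lower, against 1.19%. In wild type GW501516 went with 1 gene higher (Slc34a2), against 3.18%, and 1 lower (Scnn1g), against 3.25%. Neither stayed past 2-fold with the floor at the 40th percentile, where their log2 differences were 0.39 and -0.21. In transgenic mice it went with 5 higher (Aqp3, Aqp5, Scnn1b, Scnn1g and Slc34a2), against 3.99%, and 0 lower, against 4.07%, and all 5 values use the transgenic chow array. The genes were picked with these differences in view, so nothing is read from these shares. The median log2 difference of the 8 genes was 0.18, 2.29, 0.16 and 1.53 in these 4 comparisons, where all genes that passed had medians of 0.020, 0.0016, -0.037 and -0.034.

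Transgenic mice on GW501516 against wild type on chow differ in both factors and share arrays with the comparisons above. Here Slc34a2 was 45.0-fold, Aqp3 35.5-fold, Scnn1g 10.9-fold, Kcnn4 4.94-fold and Scnn1b 4.09-fold higher, which are 5 of the 8 genes against 5.5% of all genes. Aqp1, Aqp5 and Slc12a2 differed by 1.11-fold, 1.14-fold and 1.18-fold, and 0 genes were 2-fold lower, against 4.21%.

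The GW501516 differences were then compared between genotypes as a difference of log2 differences, which uses each array once. It was 4.32 for Scnn1g, 2.16 for Aqp3, 1.95 for Scnn1b and 1.78 for Aqp5, each higher in transgenic mice, so 4 of the 8 genes were past 2-fold against 4.43% of all genes, and 0 were past 2-fold in the other direction, against 5.25%. Of all genes past 2-fold, 45.8% were higher in transgenic mice, and 55.8% when arrays were shifted to one median. Slc34a2, Slc12a2, Kcnn4 and Aqp1 stood at 0.48, 0.81, 0.47 and 0.32, but Slc34a2 reached 1.45 with the floor at the 40th percentile and Slc12a2 1.02 with the mean over probe sets. In wild type Scnn1b and Aqp5 differed between diets by 1.17-fold and 1.15-fold, so most of their value lies on the transgenic side, which for Aqp5 is set by the low chow array.

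**Figure D3:**
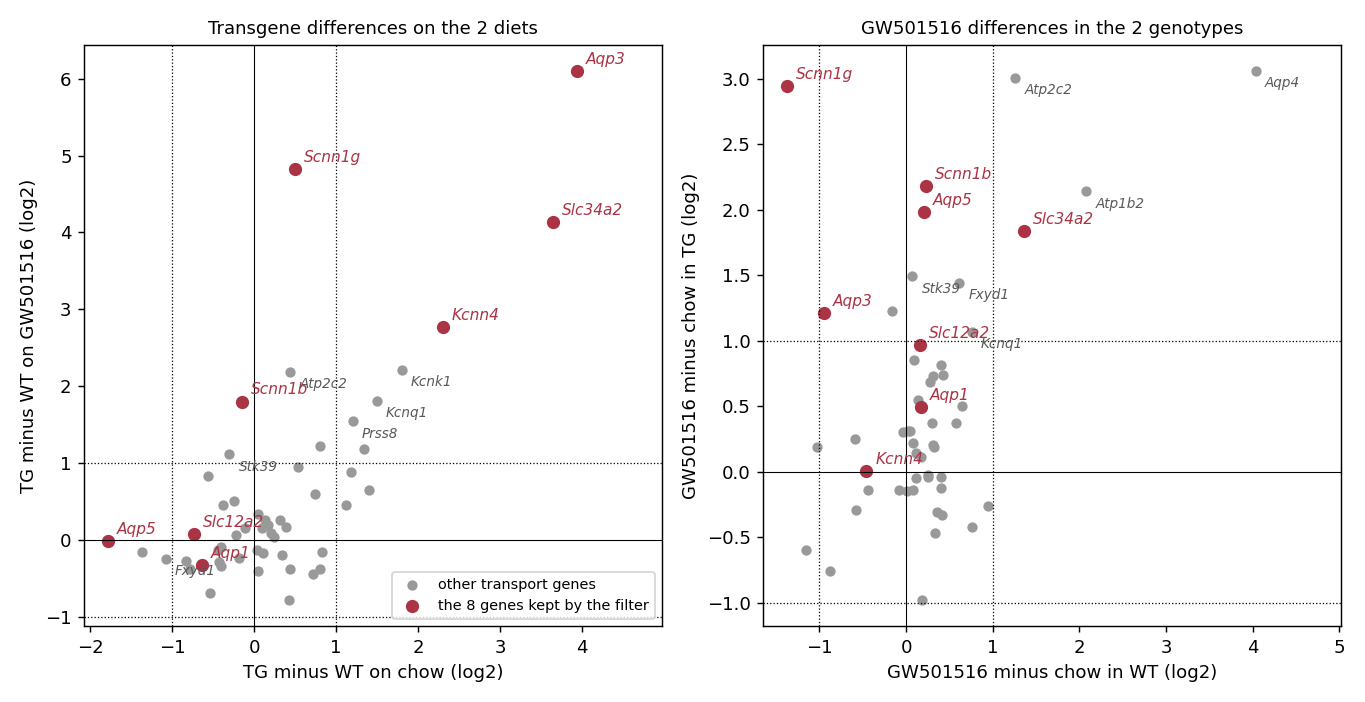
Log2 differences of the 8 genes that passed the filter (red) and of 44 other transport genes (grey), with the transgene differences (TG minus WT) on chow against those on GW501516 at left, and the GW501516 differences in wild type against those in transgenic mice at right; dotted lines mark 2-fold. Aqp3 and Slc34a2 lie at the upper right of the left panel, and Scnn1g lies at the upper left of the right panel, away from Aqp4, whose wild-type difference is a lower bound, and Atp1b2 at the right.

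Other genes of the same pathways were taken from 7 lists with 87 genes, of which 71 had a named probe set and 44 passed the filter. On chow 7 of the 44 were past 2-fold higher with the transgene, against 5.46% of all genes, and 2 lower, against 3.71%, with a median log2 difference of 0.15. On GW501516 7 were higher, against 2.82%, and 0 lower, against 1.19%, with a median of 0.13. GW501516 went with 3 higher, against 3.18%, and 2 lower, against 3.25%, in wild type (median 0.25). In transgenic mice it went with 7 higher, against 3.99%, and 0 lower, against 4.07% (median 0.20). Genes that reached the filter only where they were high had to differ, so these counts support nothing about the lists.

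Among the regulators of the sodium channel, 14 of 17 passed. Prss8, prostasin, a membrane-bound protease known to activate the channel, read 143.9 and 139.9 in wild type on chow and on GW501516 and 331 and 408.5 in transgenic mice, a log2 difference between genotypes of 1.20 on chow and 1.55 on GW501516. St14, matriptase, a protease that acts with prostasin, read 380.4, 959.7, 596.5 and 1357 in wild type on chow, transgenic on chow, wild type on GW501516 and transgenic on GW501516, and was past 2-fold between genotypes on both diets. Their inhibitors Spint1 and Spint2 differed by 1.40 and 1.18 (log2) on chow and by 0.65 and 0.88 on GW501516. Stk39, the kinase SPAK, phosphorylates the Slc12a2 product. Between genotypes it was past 2-fold on GW501516 alone, where the wild-type pool read 298.5 and the transgenic pool 647.3. On chow these pools read 283.8 and 230.3. Within transgenic mice Stk39 was 2.81-fold higher on GW501516, a value that uses the transgenic chow array. Hsd11b2, which inactivates glucocorticoids in aldosterone target cells, read 141.2 in wild type on chow and 54.5 to 69.1 on the other arrays. It reached the filter in wild type on chow alone. Sgk1 and Nedd4l, the kinase and the ubiquitin ligase that control the channel at the membrane, stayed within 2-fold in all comparisons, with Sgk1 between 2383 and 3304 and Nedd4l between 465 and 615.1.

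Of the potassium channels 3 of 12 passed, and on GW501516 all 3 were past 2-fold higher with the transgene, against 2.82% of all genes. Kcnq1 reached the filter on the transgenic GW501516 array alone and Kcnk5 on the transgenic arrays alone, so for them the filter asks for a high array. Kcnk1, a background potassium channel, read 519.9, 1815, 687.4 and 3187 in wild type on chow, transgenic on chow, wild type on GW501516 and transgenic on GW501516. Its log2 difference between genotypes was 1.80 on chow and 2.21 on GW501516. Kcnq1, the pore subunit of a voltage-gated channel, read 25.9, 73.2, 43.7 and 153.2 in this order, and Kcnk5, a background channel, 99.1, 173.2, 123 and 287.5. On chow Kcnk1 and Kcnq1 were past 2-fold and Kcnk5 was not.

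Of the 7 genes of the phosphate list 4 passed and 0 were past 2-fold in any of the 4 comparisons. Over all genes 2.82% to 5.46% were higher and 1.19% to 4.07% lower, so 0 of 4 is near those shares and nothing is read from it. Slc20a1 and Slc20a2, the widely expressed phosphate importers, lay between 308.7 and 485.1 on all arrays. Slc34a1, the kidney form, was under the floor on all arrays. Of the cation-chloride and chloride list 9 of 19 passed and 0 were past 2-fold in the 4 comparisons that differ in 1 factor. This too is near the shares of all genes. The largest difference there was that of the calcium-activated chloride channel Ano1, at 356.5 in wild type on GW501516 and 691.7 in the transgenic GW501516 pool, and against wild type on chow, at 295.7, Ano1 was 2.34-fold higher in that pool. Cftr and the kidney cotransporters Slc12a1 and Slc12a3 were under the floor throughout.

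In the calcium list 5 of 13 passed. Atp2c2, a Golgi calcium pump known to be induced with lactation, read 47.0, 63.8, 112.7 and 512.9 in wild type on chow, transgenic on chow, wild type on GW501516 and transgenic on GW501516, so it was highest on the same array as Scnn1b and Scnn1g. Atp2c2, Scnn1b and Scnn1g each reached the filter on that array alone, so for them the filter asks for a high array. Orai1, a calcium entry channel, read 481.4 on that array and 205.3 to 301.9 on the others. Atp2c1, the related pump of most cells, was past 2-fold only between genotypes on chow (1.12, log2), and on GW501516 this difference was 0.45.

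Of the other aquaporins Aqp4 and Aqp7 passed, and of the sodium-potassium pump list 7 of 11. Aqp4, a water channel of brain and fast muscle, read 7.5 in wild type on chow, 36.4 in the transgenic chow pool, 336.1 in wild type on GW501516 and 303.4 in the transgenic GW501516 pool. Atp1b2, a pump subunit, read 58.3, 62.5, 246.2 and 275.6 on these arrays. Aqp4 and Atp1b2 reached the filter on the GW501516 arrays alone, so for them too the filter asks for a high array. The skeletal muscle list had 10 of 10 genes past 2-fold higher in both GW501516 comparisons, against 3.18% of all genes in wild type and 3.99% in transgenic mice. Its summed intensities were 10789, 24512, 91025 and 87076 in the same order, and its part in the Aqp4 and Atp1b2 values was not tested. Aqp7, the glycerol channel of adipocytes, stayed between 404.2 and 535.4. Fxyd1, phospholemman, read 1719, 815.9, 2630 and 2217, and Fxyd5 1142, 643.3, 511.9 and 425.8.

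The summed intensity of the 11 luminal markers was 22115 in wild type on chow, 29287 in the transgenic chow pool, 24453 in wild type on GW501516 and 32081 in the transgenic GW501516 pool. The median log2 difference of the 10 that passed was 0.93 between genotypes on chow and 0.58 on GW501516. On chow 5 were at least 2-fold higher, against 5.46% of all genes, and 0 lower, against 3.71%. On GW501516 0 were higher, against 2.82%, and 0 lower, against 1.19%, so these counts of 0 are near the shares of all genes. Epcam, an epithelial adhesion protein, read 2588, 5565, 3442 and 5309 and Krt8, a luminal keratin, 6057, 5932, 5613 and 8266. The 7 milk and alveolar genes had summed intensities of 14329, 35303, 34327 and 83238. With the transgene on chow 5 were at least 2-fold higher, against 5.46% of all genes, and 1 lower (Lalba), against 3.71%. On GW501516 5 were higher, against 2.82%, and 0 lower, against 1.19%. Lalba was 3.93-fold lower in transgenic mice on chow and 5.84-fold higher on GW501516. Wap and Olah reached the filter on the transgenic arrays alone, so for them the filter asks for a high array. Nothing is read from these milk gene counts. The differences of Aqp3 and Slc34a2 between genotypes, 15.3-fold and 12.6-fold on chow and 68.5-fold and 17.6-fold on GW501516, stood beside those values, and the part of epithelial or alveolar content in them was not tested. In whole-gland RNA more cells of a type and more RNA per cell cannot be told apart.

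Basal and skin markers were also listed because Aqp3 is known from the basal layer of epidermis. Krt14, the basal keratin, read 323.2, 3652, 334.9 and 2818 in wild type on chow, transgenic on chow, wild type on GW501516 and transgenic on GW501516, while Krt5, its usual partner, read 231, 408.1, 326.3 and 229.1. Of the 7 basal markers 6 passed, with median log2 differences between genotypes of 0.79 on chow and 0.039 on GW501516. On chow 2 were past 2-fold higher, against 5.46% of all genes, and on GW501516 1 was, against 2.82%. The skin keratinocyte list holds loricrin under both its symbols, Lor and Loricrin, and 5 of its 8 symbols had a probe set. Of these 3 or 4 were under the floor on each array, and the summed intensity lay between 253.3 and 369.4. Most of the sum was Krt10, at 228.7 to 339.7, while Lor read 21.6, 43.4, 19 and 59.8 in the order above, all low.

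**Figure D4:**
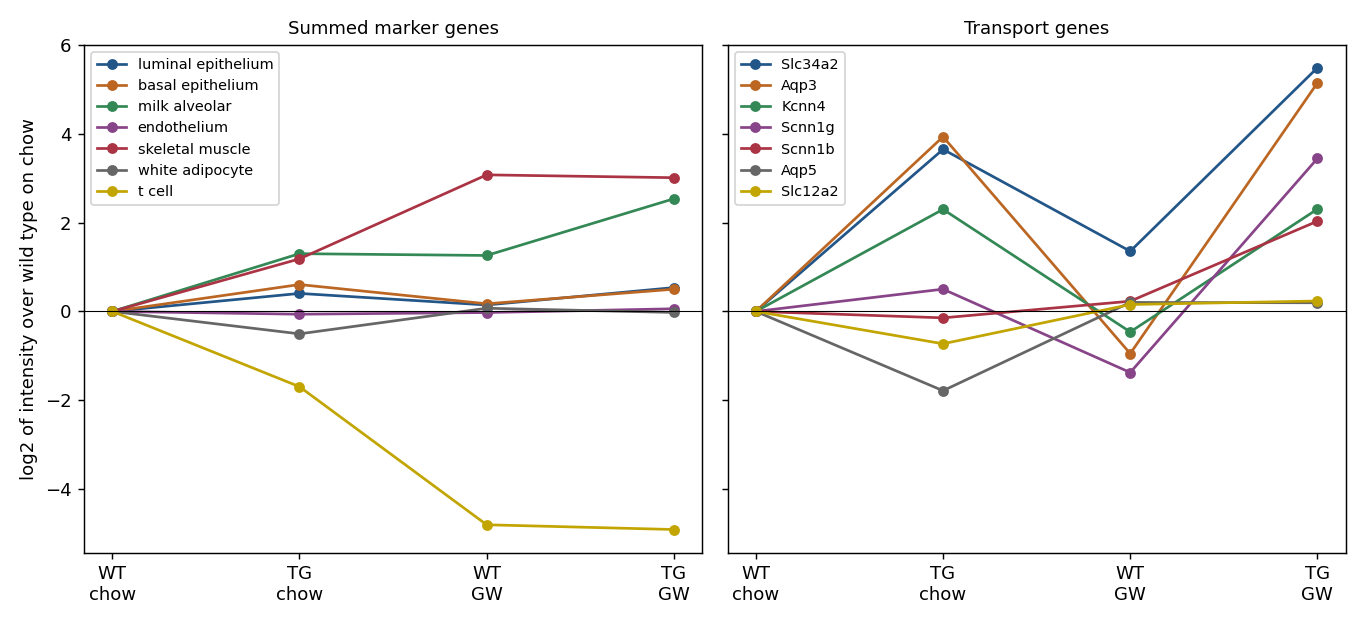
Log2 of intensity on each array relative to wild type on chow, for the summed genes of 7 marker lists (left) and for the brightest probe set of 7 transport genes (right); WT, wild type; TG, MMTV-PPARd; GW, GW501516. The milk sum is highest on TG with GW501516 (83238, against 14329 on WT with chow), as are Slc34a2 and Aqp3, the T cell sum is lowest on both GW501516 arrays and the skeletal muscle sum highest there; the basal sum is mostly Acta2.

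The genes with the most similar course over the 4 arrays were found by the root mean square (RMS) difference of log2 values, each centred on its mean. Kcnn4 was nearest to 1500002F19Rik, Arhgap8 and Cadm1 (RMS 0.26 to 0.29), and Slc34a2 to Slc28a3, a nucleoside transporter, Muc1, a mucin of the apical membrane, and Fabp3, a fatty acid binding protein (0.49 to 0.74). Scnn1b was nearest to Col9a1, Glrx and Akap12 (0.17 to 0.20), Aqp5 to Wdtc1, Lamc1 and Agt (0.12 to 0.19) and Scnn1a to Mt2, Cebpd and Pank1 (0.097 to 0.11). Scnn1g and Aqp3 had less similar neighbours, which were Tc2n, Aass and Anxa8 for Scnn1g (0.58 to 0.82) and Slc34a2, Krt14 and Crabp2 for Aqp3 (1.01 to 1.19). Slc34a2 was the nearest of 7745 genes to Aqp3, while Aqp3 stood 17th for Slc34a2. With 4 arrays many genes share a course, and these lists describe likeness only.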

How the data were processed

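Per the labels' protocols, biotin-labelled cRNA was made from RNA pooled from 5 mice per group and hybridised to Affymetrix arrays. The values deposited by the authors are probe set intensities on a linear scale, with a mean without the lowest and highest 2% of 500.17 to 500.2 and medians of 137.15 to 144. Scanner software, summarisation, detection calls and genome build are not given in the sources used here.

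Probe sets were named through the platform table, with symbols updated by gene ID: 20393 had 1 symbol, 691 several, and 1606 were not listed. The probe set with the highest mean was kept for each gene. Values under 20.5 (25th percentile) were raised to that floor before log2, and genes reaching 139 (the median) on at least 1 array, 7836 in all, were counted at 2-fold. A fold against the floor is a lower bound, written as at least.

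Named genes were the 9 genes; up to 4 genes of each transport list with the largest difference; the 3 nearest in course; and Ppard, Gapdh and Krt14. Fxyd3, Slc25a3, Xpr1, Slc9a3r1, Slc9a3r2, Clcn3 and Stim1 also met the rule for the transport lists but are not described above. Each was within 2-fold in the 4 comparisons that differ in 1 factor, and Fxyd3 was at -1.16 in the difference of GW501516 effects. St14, Spint2, Sgk1, Nedd4l, Slc34a1, Cftr, Slc12a1, Slc12a3 and the single markers of other cell types were named after their values were seen. The genes and lists were chosen with earlier results of these data known. Python 3.11.15 with numpy 2.4.6, pandas 2.3.3 and matplotlib 3.10.9 was used. The log2 differences and the 2-fold call were also run on simulated intensities with a planted change beyond 2-fold. That run did not test probe set naming, probe set choice or the filter, and says nothing of the spread between mice.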

Additional observations from a re-analysis of the deposited data

Results flagged for a closer look

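A total of 3 genes had GW501516 differences of opposite direction in the genotypes, each at least 1.5-fold, and the difference between genotypes was not tested because each group was 1 array. Scnn1g was 2.60-fold lower on GW501516 in wild type and 7.70-fold higher in transgenic mice, a difference of 4.32 (log2), with the wild-type value of 31.7 on GW501516 near the floor of 20.5. With the floor at the 40th percentile its wild-type log2 difference went from -1.38 to -0.21. Aqp3 was 1.93-fold lower and 2.32-fold higher, a difference of 2.16, with both wild-type intensities near the floor. Scnn1a was 1.59-fold higher and 1.89-fold lower, a difference of -1.59, and did not reach the filter on any array, and with the floor at the 40th percentile the difference was -0.62.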

How the results depend on the processing

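The alternatives were 2 scalings, 2 floors, 2 filters and the mean over probe sets. No difference of the 9 genes that was past 2-fold changed direction under these. With the floor at the 40th percentile, the count of the 8 genes past 2-fold for GW501516 in wild type went from 2 to 0 and that of the transport lists from 5 to 3, since low values were raised to one floor. With the stricter filter, which tests fewer genes, the transport list counts were 5 in place of 9 for the transgene on chow, 3 in place of 7 for the transgene on GW501516, 1 in place of 5 for GW501516 in wild type, 2 in place of 7 for GW501516 in transgenic mice, 6 in place of 14 for both factors together and 4 in place of 7 for the difference of GW501516 effects. The other 76 of 84 counts stayed within 1.5 times. Over all settings the Aqp3 log2 difference between genotypes ranged from 3.46 to 3.93 on chow and from 4.67 to 6.17 on GW501516, that of Scnn1g on GW501516 from 3.66 to 4.89, and the GW501516 difference of Aqp3 in wild type from -1.04 to 0. Slc12a2 passed 2-fold with the mean over probe sets in 3 comparisons, the transgene on chow (-1.04), GW501516 in transgenic mice (1.43) and the difference of GW501516 effects (1.02). It also passed for GW501516 in transgenic mice when arrays were shifted to one median (1.03), where 6 in place of 5 genes were past 2-fold. With the floor at the 40th percentile the Slc34a2 difference of effects passed 2-fold (1.45). No replicate could be left out. No paired analysis was possible because each group has 1 array. Signal near the floor limits Scnn1a, Scnn1b and the wild-type values of Aqp3, Scnn1g and Slc34a2.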
